A study of Mus musculus with 2 samples.

Results

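The ABC transporters are membrane pumps and related proteins built around an ATP-binding cassette, and their genes were taken as every listed symbol that starts with Abca to Abcg and a digit. The rule found 50 genes of the 21878 listed, and 39 of them reached 20 counts when both libraries were added up. The other 11 were *Abca4*, *Abca12*, *Abca13*, *Abca14*, *Abca15*, *Abca16*, *Abca17*, *Abcb5*, *Abcc8*, *Abcc12* and *Abcg4*, and they are named only. The member just inside that minimum was *Abcb9* with 64 summed counts, and the member just outside it was *Abca4* with 11. The samples were 1 liver library of the TSA group and 1 of the untreated group, both from FVB/N mice given c-Myc hydrodynamic injections. Such injections drive DNA into hepatocytes from the blood and serve here as a liver cancer model. PolyA RNA was sequenced to 17088227 counts in the TSA library and 17281523 counts in the untreated library. The labels give no dose, schedule, sex or age, and they do not say whether a sample was tumour, surrounding liver or a pool of animals. With 1 library per group there is no replicate check and no p-value, and every interval below is a 95% interval of counting error alone.

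In the liver, ABC transporters move solutes that cannot cross membranes unaided. Pumps of the canalicular membrane, the face of the hepatocyte that lines the bile channel, export bile salts, phospholipid, sterols and conjugated pigments and drugs into bile. Pumps of the basolateral membrane return conjugates to blood or load cholesterol onto lipoproteins, other members import fatty acyl groups into peroxisomes or serve mitochondria, and the members of subfamilies E and F do not cross membranes but act at the ribosome.

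Of the 39 genes, 20 were higher and 12 were lower with TSA, and 7 were neither. The call needed a difference of 2-fold or more and a counting interval clear of 1, after library sizes had been scaled by TMM, a method that takes most genes as not differing. By the same rule 26.0% of the 13027 genes with at least 20 summed counts were higher and 27.4% were lower, beside 51.3% and 30.8% of the ABC genes. The median log2 ratio of the ABC genes was 1.32, and that of all genes was -0.11. Scaling by total counts moved every log2 ratio down by 0.85, which is 1.8-fold. The ABC genes then stood at 16 higher and 12 lower, against 16.0% higher and 48.7% lower (64.7% in either direction) among all genes; with TMM the share in either direction was 53.4%. The 16 higher and the 12 lower genes were called under both scalings. The shares of all genes given here, with TMM and with total counts, are the background for each subfamily and list count below. For 5 genes that were not called, among them *Abcb6*, *Abcc10*, *Abcf3* and *Abcg2*, the side on which the ratio fell depended on the scaling. With TMM 6 ABC genes were at least 10-fold higher and none was at least 10-fold lower, beside 7.81% and 5.50% of all genes. With total counts 5 were at least 10-fold higher and 3 at least 10-fold lower, beside 5.42% and 9.15% of all genes.

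**Figure D1:**
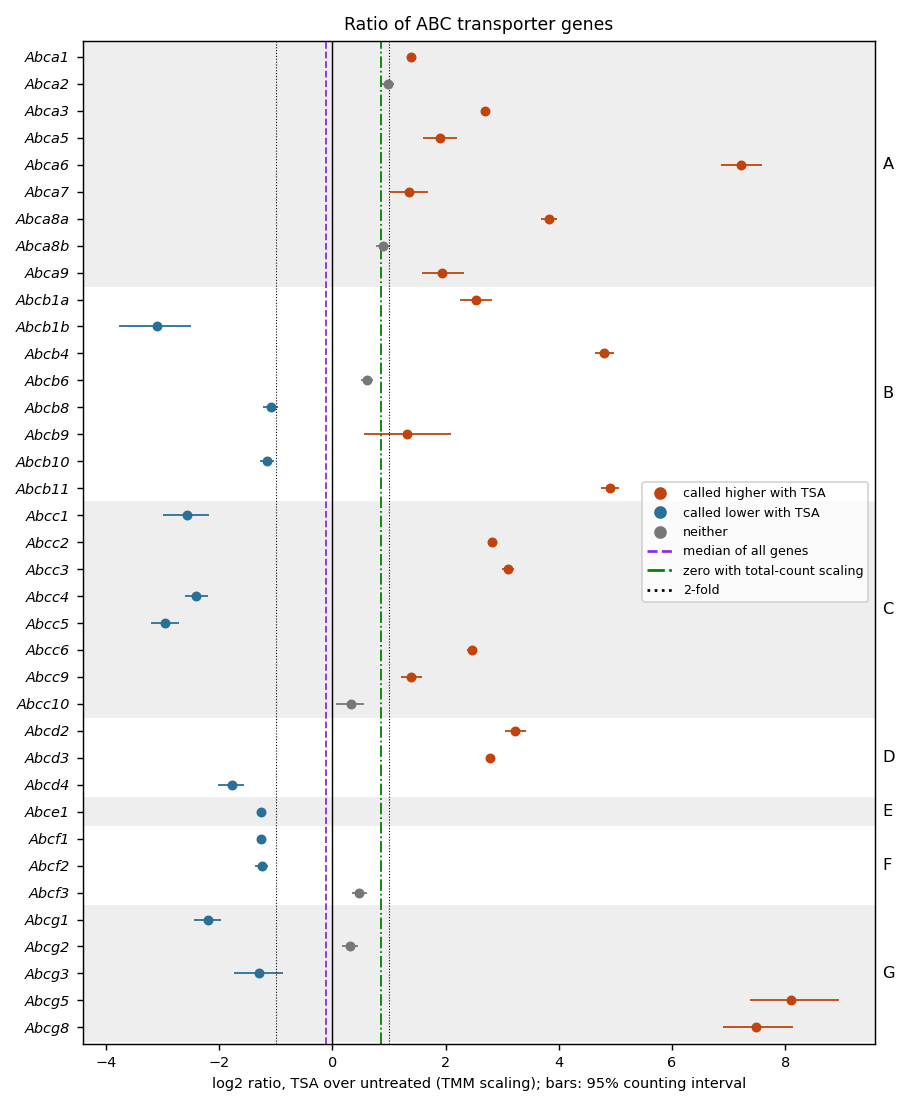
Log2 ratio of 37 ABC transporter genes, TSA over untreated with TMM scaling, by subfamily A to G (letters at right). Points are single ratios of 1 library to 1 library, bars are 95% intervals of counting error, the dashed line is the median of all genes at -0.11, and the dash-dotted line marks where zero would lie with total counts, at 0.85. *Abca6*, *Abcg5* and *Abcg8* lie above 7, and *Abcb1b* lies lowest at -3.10.

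Marker RNA of several cell types differed between the libraries along with these genes. All 12 hepatocyte markers were higher with TSA, and their summed level was 170542 scaled CPM (counts per 1e+06 counts) in the TSA library and 5826 CPM in the untreated library. All 8 proliferation markers were lower, with 21.7 CPM with TSA and 1620 CPM without treatment. Of 9 fetal liver and tumour markers 7 were lower and *Cd24a* alone was higher. *Dlk1*, *Lin28b* and *Spink1* had 0 counts with TSA. Endothelial markers were higher in 8 of 10 cases (663 CPM with TSA and 144 CPM without treatment); with total counts 6 were higher and 1 was lower. The 6 erythroid markers with enough counts were all higher (358 and 70.8 CPM, TSA first). *Gata1*, for the erythroid master factor, had 0 counts in both libraries. Of 10 macrophage markers 5 were higher and 1 was lower (685 CPM with TSA and 408 CPM without treatment), and with total counts 3 were higher and 3 lower. Summed before scaling, the macrophage markers ran the other way, at 8712 counts with TSA and 9474 without treatment. Stellate cell and fibroblast markers were higher in 5 and lower in 2 of 10 (622 CPM with TSA and 438 CPM without treatment). With total counts 4 were higher and 4 lower. Before scaling their sum also ran the other way, at 7916 counts with TSA and 10175 without treatment. Lymphocyte markers with enough counts were higher in 6 of 8 cases (39.2 CPM with TSA and 18.9 CPM without treatment), and in 4 with total counts. Cholangiocyte markers were higher in 3 and lower in 2 of 6 (76.6 CPM with TSA and 78.6 CPM without treatment), and with total counts 2 were higher and 3 lower. Their sum before scaling was 974 counts with TSA and 1825 without treatment. *Cftr* had 0 counts with TSA and 4 without treatment. In bulk liver, fewer cells of a type and less RNA per cell cannot be told apart, and the part of these marker differences in the ratios below was not tested.

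The transcripts of the family shifted in which site of the cell they serve. ABC genes took 83446 counts, or 0.488% (0.485 to 0.492) of the TSA library, against 55733 counts, or 0.323% (0.320 to 0.325, exact binomial intervals), of the untreated library. Levels are given as the deposited FPKM, which count reads per kilobase of gene model and per 1e+06 total counts, so that genes of different length can be compared. Because FPKM rest on total counts, the quotient of a gene's FPKM is 1.8-fold smaller than its TMM ratio. The 8 canalicular genes made up 34.4% of the summed ABC FPKM in the TSA library and 8.5% in the untreated library. The 3 peroxisomal genes of subfamily D made up 21.1% with TSA and 7.32% without treatment. The 4 genes of subfamilies E and F made up 8.97% with TSA and 45.1% without treatment, and the 4 mitochondrial genes 5.52% with TSA and 16.6% without treatment. Basolateral genes made up 11.7% with TSA and 10% without treatment, and among them were higher and lower genes. These shares do not depend on how the libraries are scaled to each other.

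**Figure D2:**
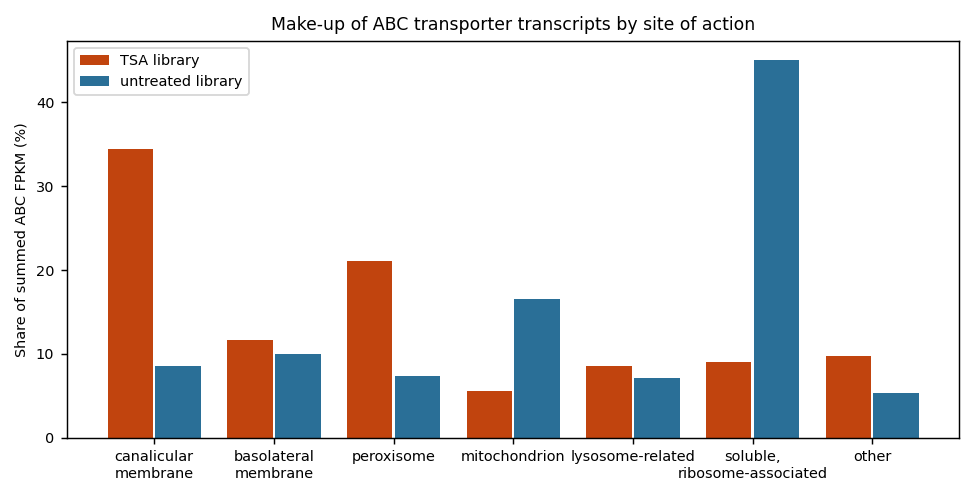
Share of the summed ABC transporter FPKM, in percent, taken by genes grouped by where their products act, in the TSA library and in the untreated library (1 library each, no error bars). The canalicular group holds 34.4% with TSA and 8.5% without treatment, and the ribosome-associated group 8.97% and 45.1%.

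The order of the members by level differed between the libraries. With TSA the highest was *Abcd3* at 183 FPKM, followed by *Abcc2* at 109.7, *Abca3* at 67.5, *Abcb4* at 60.6, *Abcg5* at 54.8 and *Abcb11* at 53.9 FPKM. *Abcg5* and *Abcb11* did not differ beyond their counting intervals. Without treatment *Abce1* and *Abcf1* stood together at 122 FPKM each, above *Abcf2* at 64.0, *Abcd3* at 48.2, *Abcb8* at 42.8 and *Abcb10* at 33.8 FPKM. *Abcd3* was the sole gene among the 6 highest of both libraries. Of 38 neighbouring pairs in each order, 23 with TSA and 24 without treatment had overlapping intervals. At 10 FPKM or more stood 20 genes with TSA and 18 without treatment.

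**Figure D3:**
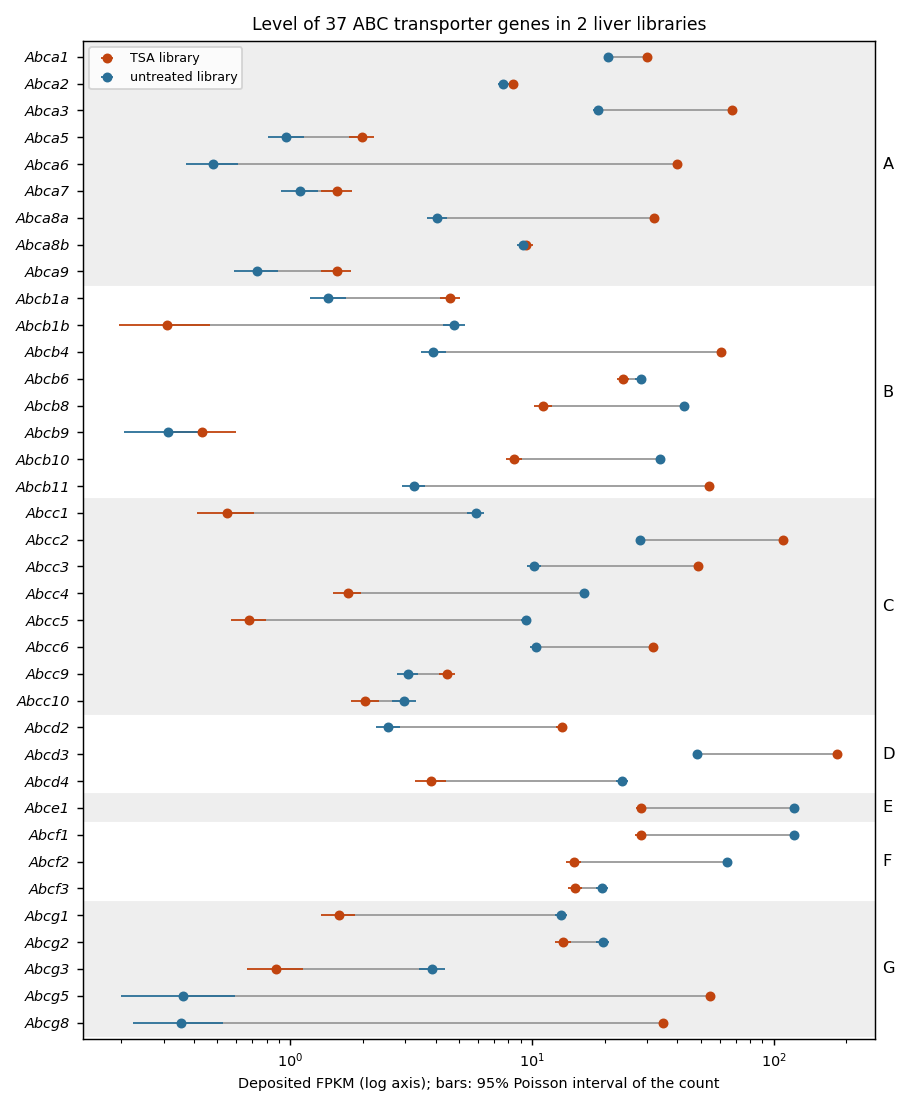
Deposited FPKM of 37 ABC transporter genes on a log axis, in the TSA library and in the untreated library (1 library each), by subfamily A to G (letters at right). Bars are 95% Poisson intervals of the count; the widest gaps are those of *Abcg5*, at 54.8 with TSA and 0.360 without treatment, and *Abcg8*, at 34.9 and 0.353.

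Subfamily A holds large lipid transporters. Of its 9 genes with enough counts 7 were higher, none was lower, and the median log2 ratio was 1.89; with total counts 5 were higher. *Abca3*, for the phospholipid pump of lung lamellar bodies, had 7592 counts (67.5 FPKM) with TSA and 2141 counts (18.8 FPKM) without treatment, and was 6.47-fold (6.17 to 6.79) higher. *Abca1*, which hands cholesterol and phospholipid to apolipoprotein A-I to form HDL, had 5386 counts (29.9 FPKM) with TSA and 3738 counts (20.6 FPKM) without treatment. It was 2.63-fold (2.52 to 2.74) higher with TMM and at 1.46-fold, not called, with total counts. *Abca7*, a relative of *Abca1*, was likewise 2.55-fold higher with TMM and at 1.41-fold with total counts. *Abca2*, a lipid transporter of lysosomes that is abundant in brain, stood at 1.98-fold (1.84 to 2.13) and was not called. Antisense exons cover 14.1% of the exonic bases of *Abca3* in GENCODE M21, and whether the counting used strand is unknown here.

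The remaining A members sit side by side on chromosome 11 in the order *Abca8b*, *Abca8a*, *Abca9*, *Abca6* and *Abca5*, all on the minus strand. Their ratios spanned a wide range. *Abca6* had 5480 counts (39.8 FPKM) with TSA and 67 counts (0.481 FPKM) without treatment, and was 149-fold (117 to 193) higher. *Abca8a* had 3442 counts (32.1 FPKM) with TSA and 442 counts (4.07 FPKM) without treatment, and was 14.2-fold (12.9 to 15.7) higher. Its neighbour *Abca8b*, at 1159 counts (9.50 FPKM) with TSA and 1138 counts (9.22 FPKM) without treatment, stood at 1.86-fold (1.71 to 2.02) and was not called. The level of *Abca8a* was thus 3.38 times (3.16 to 3.61) that of *Abca8b* with TSA and 0.442 times (0.395 to 0.494) without treatment, a comparison within each library that scaling does not touch. *Abca9* and *Abca5* were scarce, at 1.56 and 1.99 FPKM with TSA and 0.729 and 0.965 FPKM without treatment, and were 3.85-fold (2.98 to 5.01) and 3.72-fold (3.02 to 4.59) higher. Of the 50-base words in the GENCODE M21 transcripts of *Abca8a*, 1.64% also occur in *Abca8b*. These are exact matches, and shorter reads or reads mapped with mismatches could have been split between the genes over more sequence.

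Subfamily B holds the multidrug pumps, the bile salt pump and a set of mitochondrial transporters. Of its 9 genes with enough counts 4 were higher and 3 lower. With total counts 3 were higher and 3 lower, beside 16.0% and 48.7% of all genes. *Abcb11*, for the bile salt export pump, had 5610 counts (53.9 FPKM) with TSA and 343 counts (3.26 FPKM) without treatment, and was 29.9-fold (26.8 to 33.4) higher. *Abcb4*, for the phosphatidylcholine floppase that protects the bile duct lining from bile salts, had 4349 counts (60.6 FPKM) with TSA and 284 counts (3.91 FPKM) without treatment, and was 27.9-fold (24.8 to 31.6) higher. Both pumps work together in forming bile. Within the libraries *Abcb4* was at 1.12 times (1.08 to 1.17) the level of *Abcb11* with TSA and 1.20 times (1.02 to 1.41) without treatment, and these intervals overlap.

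The mouse P-glycoprotein genes *Abcb1a* and *Abcb1b*, whose products expel many drugs, lay on opposite sides. *Abcb1a* had 430 counts (4.61 FPKM) with TSA and 136 counts (1.44 FPKM) without treatment, and was 5.77-fold (4.75 to 7.05) higher. *Abcb1b* had 23 counts (0.310 FPKM) with TSA and 359 counts (4.78 FPKM) without treatment, and was 8.55-fold (5.61 to 13.7) lower. The predominant form therefore differed between the libraries: *Abcb1a* was at 14.9 times (9.78 to 23.7) the level of *Abcb1b* with TSA and at 0.301 times (0.246 to 0.368) without treatment. *Abcb1a* is also a gene of endothelial cells, whose markers were higher in 8 of 10 cases with TMM and in 6 with total counts, and the part of those cells in its ratio was not tested. The 2 genes are close copies, and 16.3% of the 50-base words of *Abcb1a* transcripts occur in *Abcb1b*, so that some of the counts may belong to the other copy. *Abcb1a*, *Abcb1b* and *Abcb4* follow each other on the plus strand of chromosome 5, with the lower gene between the higher ones.

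**Figure D4:**
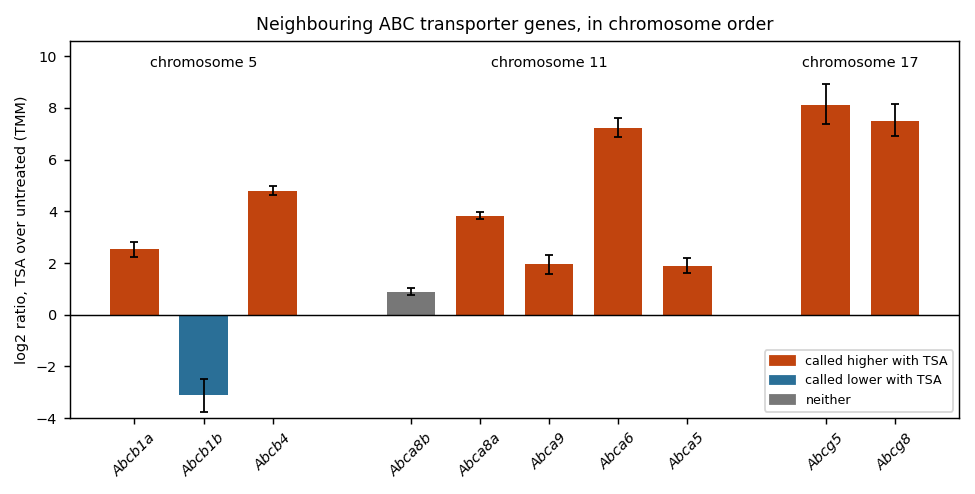
Log2 ratio, TSA over untreated with TMM scaling, of ABC transporter genes that neighbour each other, in the order in which they lie on mouse chromosomes 5, 11 and 17. Bars are single ratios from 1 library per group with 95% counting intervals; *Abcb1b* at -3.10 lies between *Abcb1a* at 2.53 and *Abcb4* at 4.80.

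The start regions of the chromosome 5 neighbours and of *Abcb11* are shown because these genes carry the contrast within the subfamily. Each is the RefSeq window of 300 bases on GRCm38.p6, from 250 bases before the annotated start to 50 bases after it, read along the gene. Capitals mark exact matches, on either strand, to the words CACGTG (the core of the MYC E-box, the same on both strands), AGGTCA (the nuclear receptor core site), GTTAAT (part of the HNF-1 site), CCAAT (the site of NF-Y) and also GGGCGG (the core of the Sp1 site) and TATAAA.
*Abcb1a*, chr5:8566841-8567140, plus strand: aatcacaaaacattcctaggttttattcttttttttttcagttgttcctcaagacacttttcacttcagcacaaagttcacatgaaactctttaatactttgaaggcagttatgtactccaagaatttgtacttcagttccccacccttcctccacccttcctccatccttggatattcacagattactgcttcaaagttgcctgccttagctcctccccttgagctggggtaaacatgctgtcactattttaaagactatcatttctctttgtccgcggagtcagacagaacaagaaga
*Abcb1b*, chr5:8797897-8798196, plus strand: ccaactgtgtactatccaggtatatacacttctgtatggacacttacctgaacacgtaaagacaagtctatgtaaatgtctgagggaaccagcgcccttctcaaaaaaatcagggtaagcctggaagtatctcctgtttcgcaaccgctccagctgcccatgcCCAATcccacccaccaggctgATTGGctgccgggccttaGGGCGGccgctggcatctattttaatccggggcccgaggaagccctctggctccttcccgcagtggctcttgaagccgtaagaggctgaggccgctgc
*Abcb4*, chr5:8893471-8893770, plus strand: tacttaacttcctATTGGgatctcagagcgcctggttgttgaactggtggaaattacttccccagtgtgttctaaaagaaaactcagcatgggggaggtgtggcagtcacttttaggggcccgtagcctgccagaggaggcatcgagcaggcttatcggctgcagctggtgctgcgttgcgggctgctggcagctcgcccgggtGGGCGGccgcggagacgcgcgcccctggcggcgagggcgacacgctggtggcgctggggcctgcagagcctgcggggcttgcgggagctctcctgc
*Abcb11*, chr2:69342567-69342866, minus strand: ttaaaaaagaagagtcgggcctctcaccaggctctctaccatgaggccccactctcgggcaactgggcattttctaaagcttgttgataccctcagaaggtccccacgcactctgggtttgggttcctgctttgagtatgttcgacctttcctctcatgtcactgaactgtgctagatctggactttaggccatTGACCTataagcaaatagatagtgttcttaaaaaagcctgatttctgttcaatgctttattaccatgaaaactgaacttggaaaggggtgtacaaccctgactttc
The *Abcb1a* window holds none of the 6 words, and those of *Abcb1b* and *Abcb4* hold CCAAT and GGGCGG matches. *Abcb11* has an AGGTCA match, printed as its reverse complement. Among ABC windows AGGTCA was in 2 of 17 of higher genes, in 0 of 10 of lower genes and in 5 of 9 of genes that were neither. AGGTCA occurs in 16.3% of all 32851 RefSeq promoter windows, GGGCGG in 35.7% and CCAAT in 37.4%. In the 12871 windows of genes with at least 20 summed counts the shares are 13.3% for AGGTCA, 60.2% for GGGCGG and 37.5% for CCAAT. A match describes the letters of the window and is not a binding site.

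The mitochondrial members of subfamily B were lower or little different. *Abcb8*, linked to mitochondrial iron export and potassium transport, had 564 counts (11.1 FPKM) with TSA and 2192 counts (42.8 FPKM) without treatment, and was 2.13-fold (1.94 to 2.34) lower. *Abcb10*, of the inner membrane and needed for heme formation in erythroid cells, had 646 counts (8.43 FPKM) with TSA and 2622 counts (33.8 FPKM) without treatment, and was 2.22-fold (2.04 to 2.43) lower, in the library in which the erythroid markers were higher; their part in its ratio was not tested. An antisense gene covers 9.5% of the exonic bases of *Abcb10*. *Abcb6*, placed in the outer mitochondrial membrane and in endolysosomes, stood at 1.53-fold (1.42 to 1.65), and another annotated transcript on its strand covers 93.6% of its exonic bases. *Abcb9*, for a lysosomal peptide transporter, was 2.5-fold (1.48 to 4.27) higher from 37 counts with TSA and 27 without treatment, and was not called with total counts. Of 16 heme and iron-sulfur partner genes 8 were higher and 1 was lower, with a median log2 ratio of 0.78. With total counts 3 were higher and 3 lower. Among all genes 26.0% were higher and 27.4% lower with TMM, and 16.0% and 48.7% with total counts. *Alas1*, for the first enzyme of heme synthesis, was 26.0-fold (24.5 to 27.7) higher.

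Subfamily C holds the multidrug resistance proteins and channel regulators. Of 8 genes 4 were higher and 3 lower. With total counts 3 were higher and 3 lower, beside 16.0% and 48.7% of all genes. *Abcc2*, for the canalicular exporter of bilirubin glucuronides and glutathione conjugates, had 10584 counts (109.7 FPKM) with TSA and 2737 counts (28.1 FPKM) without treatment, and was 7.06-fold (6.77 to 7.36) higher. *Abcc3*, for the basolateral exporter of glucuronides, had 4183 counts (48.5 FPKM) with TSA and 891 counts (10.2 FPKM) without treatment, and was 8.57-fold (7.97 to 9.22) higher. *Abcc6*, for the liver pump whose loss causes pseudoxanthoma elasticum and which releases ATP to blood, had 4209 counts (31.8 FPKM) with TSA and 1388 counts (10.4 FPKM) without treatment, and was 5.53-fold (5.21 to 5.88) higher.

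The lower C members export drugs, signalling molecules and bile acids across the basolateral face or in many other cell types. *Abcc5*, for an exporter of cyclic nucleotides and other anions, had 145 counts (0.678 FPKM) with TSA and 2048 counts (9.48 FPKM) without treatment, and was 7.74-fold (6.54 to 9.22) lower. *Abcc1*, for the widely expressed exporter of glutathione conjugates, had 56 counts (0.548 FPKM) with TSA and 607 counts (5.87 FPKM) without treatment, and was 5.94-fold (4.51 to 7.96) lower. *Abcc4*, for an exporter of bile acids and cyclic nucleotides, had 228 counts (1.73 FPKM) with TSA and 2197 counts (16.5 FPKM) without treatment, and was 5.28-fold (4.60 to 6.08) lower. Within the libraries *Abcc3* was at 28.1 times (24.6 to 32.2) the level of *Abcc4* with TSA and at 0.621 times (0.574 to 0.671) without treatment.

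The other C members differed less. *Abcc9*, for the sulfonylurea receptor subunit of potassium channels in vessels and muscle, was 2.63-fold (2.32 to 2.98) higher, with 4.47 FPKM with TSA and 3.07 FPKM without treatment, and was not called with total counts. Its channel partner *Kcnj8* stood at 1.29-fold (0.914 to 1.80), from 62 counts with TSA and 88 without treatment. Markers of stellate cells and fibroblasts, a source of *Abcc9* in many tissues, were higher in 5 and lower in 2 of 10 cases with TMM, and in 4 and 4 with total counts. Their part in its ratio was not tested. *Abcc10*, for an exporter of lipophilic anions, stood at 1.25-fold (1.05 to 1.48) and was not called.

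Subfamily D was the peroxisomal set and its 3 peroxisomal genes were higher. *Abcd3*, which imports bile acid precursors and branched or dicarboxylic fatty acyl groups, had 11518 counts (183 FPKM) with TSA and 3071 counts (48.2 FPKM) without treatment, and was 6.85-fold (6.58 to 7.13) higher. *Abcd2*, which imports long fatty acyl groups, had 1458 counts (13.3 FPKM) with TSA and 283 counts (2.55 FPKM) without treatment, and was 9.40-fold (8.27 to 10.7) higher. *Abcd4*, which acts in lysosomes in the release of cobalamin, had 182 counts (3.82 FPKM) with TSA and 1142 counts (23.7 FPKM) without treatment, and was 3.44-fold (2.94 to 4.04) lower. Of 12 peroxisome partner genes 10 were higher and none lower, with a median log2 ratio of 2.12, and 7 were higher with total counts. *Acaa1b*, for a thiolase of peroxisomal beta-oxidation, was 47.3-fold (43.9 to 51.1) higher.

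Subfamilies E and F act in translation, and 3 of their 4 genes were lower by nearly the same factor. *Abce1*, for the factor that splits ribosomes for another round of translation, had 1848 counts (28.4 FPKM) with TSA and 8065 counts (122 FPKM) without treatment, and was 2.39-fold (2.27 to 2.52) lower. *Abcf1*, which acts in translation initiation, had 1583 counts (28.2 FPKM) with TSA and 6925 counts (122 FPKM) without treatment, and was 2.40-fold (2.27 to 2.53) lower. *Abcf2* had 776 counts (14.9 FPKM) with TSA and 3370 counts (64.0 FPKM) without treatment, and was 2.38-fold (2.20 to 2.58) lower. *Abcf1* was at 1.89 times (1.74 to 2.06) the level of *Abcf2* with TSA and at 1.91 times (1.83 to 1.99) without treatment, and these intervals overlap. *Abcf3* did not follow: it had 848 counts (15.1 FPKM) with TSA and 1111 counts (19.6 FPKM) without treatment and stood at 1.39-fold (1.27 to 1.52). *Abcf1* was at 1.87 times (1.72 to 2.03) the level of *Abcf3* with TSA and 6.24 times (5.85 to 6.65) without treatment. Of 13 ribosome and translation partner genes 6 were lower and none was higher with TMM, with a median log2 ratio of -0.95, and 10 were lower with total counts. *Eif3a*, for an initiation factor subunit, was 3.03-fold (2.92 to 3.15) lower, and *Eif2s3x* 3.09-fold (2.91 to 3.28) lower.

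The start region of *Abcf1* is shown as that of a lower member with the E-box core, a word that windows of higher genes held too. The windows of *Abce1* and *Abcf2*, lower by nearly the same factor, held no CACGTG.
*Abcf1*, chr17:35969701-35970000, minus strand: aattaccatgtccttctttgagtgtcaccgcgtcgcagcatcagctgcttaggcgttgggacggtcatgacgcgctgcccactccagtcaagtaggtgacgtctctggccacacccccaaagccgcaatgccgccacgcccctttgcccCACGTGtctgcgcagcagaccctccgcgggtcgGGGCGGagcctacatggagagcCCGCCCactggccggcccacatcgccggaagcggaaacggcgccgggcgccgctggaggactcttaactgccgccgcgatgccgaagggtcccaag
The E-box core CACGTG was present in 2 of 17 windows of higher ABC genes, in 2 of 10 of lower ones and in 1 of 9 of those that were neither. It was in 7.15% of all RefSeq windows, or 9.57% of the windows of genes with at least 20 summed counts. TATAAA was in 3 of 17 windows of higher genes, in none of 10 of lower genes and in 3 of 9 of genes that were neither. Those last 3 windows are of *Abcb6* and *Abcg2* alone. The overlapping windows of *Abcg5* and *Abcg8*, both higher, hold the same TATAAA site, so it was counted in each. This word was in 13.6% of all windows and in 7.61% of those of genes with at least 20 summed counts. GTTAAT was in none of the 36 ABC windows, in 7.10% of all and in 4.86% of those of genes with enough counts. Windows were found for 29 of the 39 genes, with more than 1 window for some. Among those not matched were *Abca6*, *Abcb8*, *Abcc1*, *Abcc3*, *Abcc6*, *Abcd2*, *Abcd4* and *Abcg1*.

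Subfamily G held the widest gaps of the family. *Abcg5* and *Abcg8* code for the subunits of the pump that secretes cholesterol and plant sterols into bile, and mutations in either cause sitosterolemia in humans. *Abcg5* had 2258 counts (54.8 FPKM) with TSA and 15 counts (0.360 FPKM) without treatment, and was 275-fold (166 to 492) higher. *Abcg8* had 2248 counts (34.9 FPKM) with TSA and 23 counts (0.353 FPKM) without treatment, and was 178-fold (119 to 282) higher. Their intervals overlap, and the untreated level of both rests on few counts. With total counts they were 152-fold and 98.8-fold higher. The level of *Abcg5* was 1.57 times (1.48 to 1.67) that of *Abcg8* with TSA and 1.02 times (0.495 to 2.04) without treatment.

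The pair lies head to head on chromosome 17, *Abcg5* on the minus and *Abcg8* on the plus strand. Their nearest annotated starts are 110 bases apart, so that the 300-base windows of these starts share 209 bases. *Abcg8* has another annotated start, with a window at chr17:84676052-84676351 that does not overlap that of *Abcg5*. The *Abcg5* window is shown because it holds the region between the nearest starts. Capitals mark the same words as above.
*Abcg5*, chr17:84682962-84683261, minus strand: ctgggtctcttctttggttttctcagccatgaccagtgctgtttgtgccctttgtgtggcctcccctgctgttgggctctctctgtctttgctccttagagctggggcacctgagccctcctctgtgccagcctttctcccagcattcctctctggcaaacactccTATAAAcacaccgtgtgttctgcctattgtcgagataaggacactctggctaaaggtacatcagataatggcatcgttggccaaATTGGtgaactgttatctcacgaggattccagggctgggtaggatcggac
It holds TATAAA and, as its reverse complement, CCAAT, and none of the other 4 words. Their exons overlap by 40 bases in GENCODE M21, or 1.65% of the exonic bases of *Abcg5*.

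The other G members did not share that rise. *Abcg1*, which moves cholesterol to HDL and is well known in macrophages, had 158 counts (1.59 FPKM) with TSA and 1330 counts (13.2 FPKM) without treatment, and was 4.61-fold (3.91 to 5.47) lower. Of the 10 macrophage markers *Cd68*, named after its value was seen, was the sole one called lower with TMM, at 3.42-fold (3 to 3.91). Another 5 were called higher, among them *Clec4f*, a marker of Kupffer cells, at 44.3-fold (36.3 to 54.5), and 4 were not called. With total counts 3 of the markers were called in each direction. The part of macrophages in the *Abcg1* ratio was not tested. *Abcg3*, a gene of rodents, had 57 counts (0.874 FPKM) with TSA and 255 counts (3.87 FPKM) without treatment, and was 2.45-fold (1.83 to 3.33) lower. *Abcg2*, for the exporter of urate, porphyrins and many drugs, had 670 counts (13.5 FPKM) with TSA and 990 counts (19.7 FPKM) without treatment. It stood at 1.24-fold (1.12 to 1.36) with TMM and below 1, at 0.684-fold, with total counts. Within the libraries it was at 0.386 times (0.353 to 0.421) the level of *Abcg8* with TSA and at 55.7 times (36.9 to 88.3) without treatment.

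Regrouped by membrane, 6 of the 8 canalicular genes were higher under both scalings, with a median log2 ratio of 3.81; *Abcb1b* was lower and *Abcg2* was neither. The 6 basolateral genes were evenly split with TMM, with *Abca1*, *Abcc3* and *Abcc6* higher and *Abcc1*, *Abcc4* and *Abcc5* lower. A list of bile transport partners mixed genes of the canalicular side with basolateral uptake carriers. Of its 14 genes with enough counts 6 were higher, 1 was lower and 7 were neither, with a median log2 ratio of 0.91. With total counts 5 were higher and 2 lower. The lower one, *Ezr* for the membrane linker ezrin, differed by 3.77-fold (3.25 to 4.39) and is named after its value was seen. The largest ratios in the list were those of basolateral uptake carriers, *Slco1a1* at 306-fold, *Slco1b2* at 293-fold, *Slco1a4* and *Slc10a1*. Besides these carriers only *Tmem30a* and *Atp8b1* were higher, and *Atp8b1* was not called with total counts.

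Of the transcription factors known to control ABC genes 11 of 15 were higher and none was lower with TMM, against 7 higher and 2 lower with total counts. Their median log2 ratio was 1.82. *Nr1i3*, for the drug sensor CAR, had 5017 counts (87.6 FPKM) with TSA and 53 counts (0.915 FPKM) without treatment, and was 173-fold (132 to 231) higher. *Nr0b2*, for the repressor SHP that bile acids induce, was 86.9-fold (54.6 to 147) higher, and *Hnf4a*, for a master factor of hepatocytes, 2.46-fold (2.39 to 2.52) higher with TMM but not called with total counts. *Nr1h4*, for the bile acid receptor FXR that switches on *Abcb11* and *Abcb4*, was 12.2-fold (11 to 13.5) higher, and *Nr1h3*, for the oxysterol receptor LXR alpha that switches on *Abca1*, *Abcg1*, *Abcg5* and *Abcg8*, was 5.03-fold (4.56 to 5.56) higher; these last 2 are named after their values were seen. The LXR target genes in the family did not share a direction, since *Abcg5* and *Abcg8* were higher in both scalings, *Abca1* with TMM alone, and *Abcg1* was lower in both. Of 11 sterol and lipoprotein partners 5 were higher and none was lower with TMM (4 and 2 with total counts), with *Apoe* 8.48-fold (8.39 to 8.57) and *Lcat*, for the enzyme that esterifies cholesterol on HDL, 10.4-fold (9.8 to 11) higher.

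**Figure D5:**
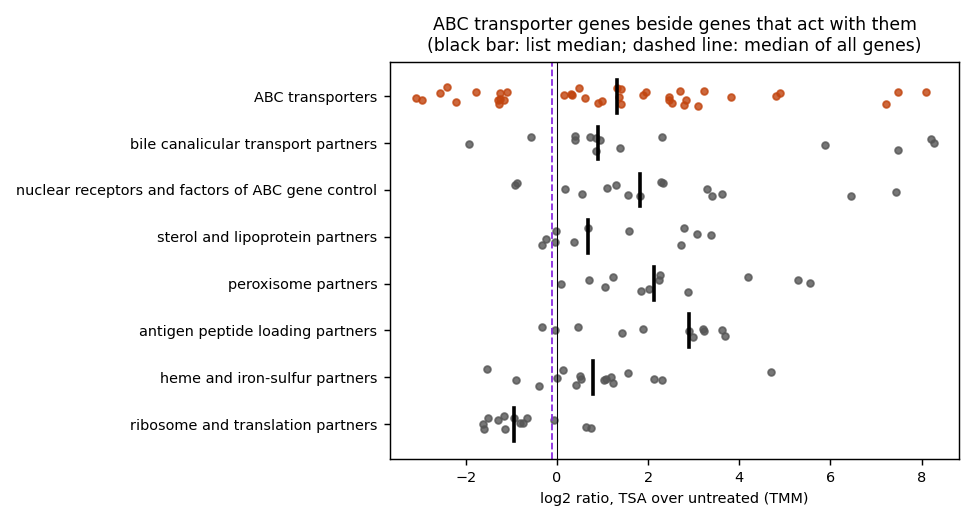
Log2 ratio, TSA over untreated with TMM scaling, of the 39 ABC transporter genes (top row) and of 7 lists of partner genes. Each point is 1 gene with at least 20 summed counts, from 1 library per group. The antigen peptide loading list holds partners of *Tap1* and *Tap2*, ABC genes outside the 39. Black bars are list medians, and the dashed line is the median of all genes at -0.11; the ribosome and translation list is the sole one with a median below it, at -0.95.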

How the data were processed

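PolyA RNA of 1 TSA and 1 untreated mouse liver library was measured. Per the submitters' processing notes Trimmomatic, HISAT2, Bowtie2 and DESeq were used, with neither role nor version stated. Build, annotation, counter and strand setting: not given in the sources used here. Per the file headers, the deposited counts are unscaled reads per gene symbol, and all are whole numbers. FPKM, as deposited, are those counts per kilobase and per 1e+06 of the library total. The gene length implied by each library was a whole number, the same in both to 0.1 base, for each of the 14271 genes counted in both.

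Library sizes were scaled by TMM (factors 0.744 for TSA and 1.34 for untreated) in edgeR 4.0.16 under R 4.3.3, with DESeq2 1.42.0 size factors as an alternative. Ratios are TSA over untreated counts; fold lower is the inverse. Their 95% intervals are exact conditional binomial (Clopper-Pearson). Without molecular identifiers PCR copies count as reads, so the intervals cover counting error only. The calling steps were run on simulated counts that held counting error alone and few differing genes. That run cannot show whether the calls made here would hold in further animals. Counts of 0 entered list medians as 3. Scaled CPM use TMM library sizes. Intervals came from scipy 1.17.1, tables from pandas 2.3.3 and numpy 2.4.6, and plots from matplotlib 3.10.9, under Python 3.11.15.

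The family, its partner and marker lists, the grouping by site of action and the gene pairs were chosen with earlier results of these data known. Every member with at least 20 summed counts could be named, with full values for called members that had 100 or more counts in 1 library and for the 2 of highest FPKM per library and subfamily; other members are given in brief. In each other list, among genes with 50 or more summed counts, the rule names the 2 most counted and the 2 that differed most, and other genes named there were chosen after their values were seen. Promoter windows are from RefSeq on GRCm38.p6, which may not be the build the counts rest on. Protein sequences were not analysed here, and some genes counted in the summaries are not reported singly here.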

Additional observations from a re-analysis of the deposited data

How the results depend on the processing

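The number of lower ABC genes stayed at 12 under every scaling, count minimum and prior count tried and with a 1.5-fold threshold. It was 10 when the interval had to lie beyond 2-fold. Among all 13027 genes the number called lower did move, from 3573 (27.4%) with TMM to 6339 (48.7%) with total counts. The same 12 of 39 ABC genes (30.8%) were thus near the share of all genes with TMM and below it with total counts. A 4-fold threshold left 5 lower and 14 higher. The number of higher genes ranged from 14 to 23 over all alternatives, against 20 as reported. The median log2 ratio of the family was 1.32 as reported, 0.47 with total counts, 0.37 with deposited FPKM plus 0.1, 0.13 with deposited FPKM plus 1, and 0.88 with a minimum of 1 count, which brings in members at or near 0. The first 3 of these lower values share scaling by total counts, under which the median of all genes is also lower, at -0.96, -0.91 and -0.67. The difference from that median was 1.43 with TMM, and other scalings of the same counts cannot change it, since they move all genes alike. It was 1.28 with FPKM plus 0.1, 0.80 with FPKM plus 1 and 0.84 with a minimum of 1 count. No called member changed sign under any scaling, pseudocount or prior count. DESeq2 size factors, upper quartiles and a prior count of 2 moved all 39 single ratios by less than their counting intervals. No paired analysis was possible because each group has 1 library, and no library could be left out. Depth limits *Abcb1b* and *Abcb9* with TSA and *Abcg5* and *Abcg8* without treatment, which rest on 15 to 37 counts.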

Other observations

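Some proteins of the ABC superfamily have gene symbols outside the rule used here, and they are given after their values were seen. *Tap1* and *Tap2* code for the peptide pump that feeds MHC class I molecules in the endoplasmic reticulum. *Tap1* had 389 counts (7.65 FPKM) with TSA and 115 counts (2.24 FPKM) without treatment, and was 6.17-fold (5 to 7.67) higher. *Tap2* had 755 counts (17.7 FPKM) with TSA and 86 counts (2 FPKM) without treatment, and was 16.0-fold (12.8 to 20.3) higher. Of 11 genes that act with this pump 8 were higher and none was lower, with a median log2 ratio of 2.89; with total counts 7 were higher and 1 was lower. *B2m*, for the light chain of class I molecules, was 9.27-fold (9 to 9.55) higher and *H2-K1*, for a class I heavy chain, 12.9-fold (12.1 to 13.7) higher, while the general chaperone genes *Calr* and *Canx* stood at 1.39-fold and 0.793-fold. *Canx* is named after its value was seen and was lower with total counts.

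Solute carriers, the other large transporter group, had 269 genes with at least 20 summed counts, of which 112 (41.6%) were higher and 55 (20.4%) lower with TMM. Total counts gave 72 and 96. Their median log2 ratio was 0.53, beside 1.32 for the ABC genes and -0.11 for all genes; the difference between these medians was not tested.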
